A study of Mus musculus with 10 samples.

Results

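Retinol carriers and retinoic acid enzymes were followed through 9 mouse genes, Rbp4, Ttr, Stra6, Rdh10, Aldh1a1, Aldh1a2, Crabp1, Crabp2 and Cyp26a1, of 18193 genes that had a probe set of their own. Every probe set annotated to exactly 1 of these symbols was taken, which gave 11 probe sets on the Affymetrix array MOE430A and 2 on MOE430B. All RNA came from mouse embryos at embryonic day 5.5 from B6SJLF1×CerlP-GFP matings, in which green fluorescent protein under the Cerl (Cer1) promoter marks the anterior visceral endoderm. Ad is the anterior distal piece, cut to contain the fluorescent endoderm with the epiblast beneath it. Pp is the posterior proximal piece from the opposite side, of proximal visceral endoderm and epiblast, bounded above by the extraembryonic region. The third kind of sample is the whole embryo, untreated like the fragments and hybridised by the study for normalization. Ad and Pp were hybridised 2 times each on both array types, and the whole embryo 1 time on each. The labels do not say how many fragments made up a sample or whether replicates came from separate embryos, so a p-value here speaks only of the spread among these arrays, which may be technical.

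Retinol travels bound to the carrier Rbp4, which in serum is held by transthyretin, the product of Ttr. The membrane protein Stra6 passes it into cells. Rdh10 oxidises retinol to retinal, and the dehydrogenases Aldh1a1 and Aldh1a2 oxidise retinal to retinoic acid. Crabp1 and Crabp2 bind retinoic acid inside the cell, Crabp2 delivering it to nuclear receptors, and the hydroxylase Cyp26a1 clears it. The visceral endoderm, the epithelium around the early embryo, makes serum carriers such as these before a liver exists, and mouse embryos that lack Cyp26 enzymes have defects of axis formation.

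Cyp26a1 itself responds to retinoic acid through repeats in its promoter, so the promoter windows of the members were searched. RefSeq (build GRCm38.p6) gave windows of 6 of the 9 genes, 11 windows in all. The motifs were pairs of the hexamers AGGTCA or AGTTCA, in the same orientation and in any combination, with 5 or 2 bases between them, on both strands. The 5-base spacing was found in the window of 1 member, Cyp26a1, and in 0.0396% of all 32851 windows. The 2-base spacing was found in none of the members' windows and in 0.0396% of all windows. The printed stretch is chr19:37697770-37697798, 38 to 10 bases before the start site on which RefSeq's window is set. The repeat itself is 32 to 16 bases before that site. RefSeq's gene record starts further upstream, at 37697738, so the stretch lies inside the annotated gene. It is shown because it is the one match among the members. The first line gives the gene's own (plus) strand with flanking bases and the second the repeat on the minus strand, with the hexamers in capitals.
Cyp26a1 promoter, plus strand: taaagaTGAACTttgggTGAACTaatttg
Cyp26a1 repeat, minus strand: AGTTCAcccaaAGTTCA
A match of letters is a description only, and no binding was measured here.

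Signal is the deposited array intensity in arbitrary units. Signal depends on the probes as well as on the RNA, so levels were not compared between genes. Bright and dim refer to the filter, or to the probe sets of 1 gene. Probe sets whose mean log2 value exceeded the 40th percentile of their array type were tested. This filter signal was 464 for MOE430A and 37.2 for MOE430B. On MOE430A 7 of 11 member probe sets passed that filter, covering 5 genes, and on MOE430B both did. Stra6, Aldh1a1, Aldh1a2 and Crabp1 did not pass. Differences are log2 differences from limma, adjusted by Benjamini-Hochberg over all tested probe sets of the array type, with a threshold of 0.05.

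The samples were checked against lists of cell type markers, each gene by its brightest probe set. Summed signal of 6 anterior visceral endoderm markers on MOE430A was 14659 to 18998 in Ad, 5196 to 5258 in Pp and 7451 in the whole embryo, and 3 of the 6 (Lefty1, Hesx1 and Lhx1) rose in Ad against Pp, as did a dimmer probe set of Cer1. Summed signal of 10 visceral endoderm markers was 59241 to 68349 in Ad, 55369 to 64616 in Pp and 55204 in the whole embryo. That of 8 epiblast markers was 32830 to 34743, 29747 to 33851 and 22912 in the same 3 kinds of sample, and Pou5f1, Utf1, Tdgf1, Fgf4 and Otx2 rose in the fragments against the whole embryo. Markers of the maternal decidua, 8 in all, summed to 5548 to 6449 in Pp and 54527 in the whole embryo. In Ad they summed to 5462 in replicate 1 and 8108 in replicate 2. Ad replicate 2 was the higher for Ctla2a (1646 against 275), Tac2 (945 against 256), Prl8a2, S100a6, Rgs2 and Cryab. It was the lower for Des and Igfbp4. The 8 extraembryonic ectoderm markers summed to 8714 to 8891 in Ad and 17321 in the whole embryo. In Pp they summed to 8486 in replicate 1 and 14789 in replicate 2. Pp replicate 2 lay above the whole embryo for Elf5 (2432 against 2194), Bmp4 (2359 against 1595), Esrrb and, barely, Tfap2c. For Hand1, Cdx2, Eomes and Ets2 it lay below. Elf5 and Bmp4 in Pp replicate 1 were at 601 and 573. Hand1 and Ets2 of that list, and Sparc and Col4a1 of the parietal endoderm list, fell in the fragments. Dimmer Tfap2c probe sets fell too (-2.15 and -1.14, limma adjusted p = 0.0490 and 0.0380). Of 3 blood markers on MOE430A 1 was tested and did not pass.

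**Figure D1:**
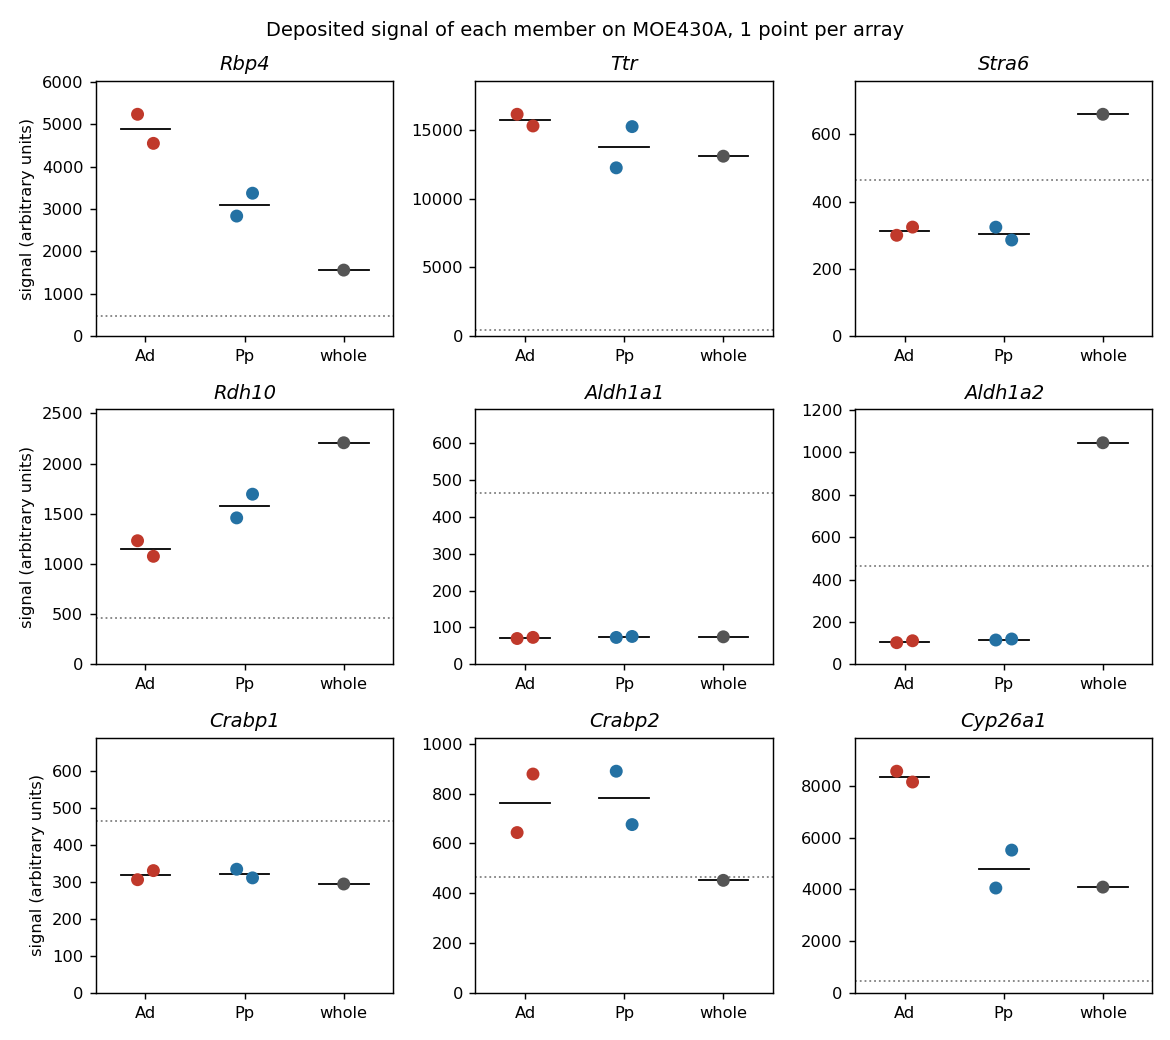
Deposited signal (vertical axes, arbitrary units, linear, each from 0) of the 9 genes on MOE430A by their brightest probe sets, with 1 point per array, bars at the group means and a dotted line at the filter signal of 464. Rbp4, Cyp26a1 and, by a narrow margin, Ttr were highest in the 2 Ad arrays. Rdh10 was highest in the whole embryo, and Aldh1a2 and Stra6 crossed the filter line in the whole embryo alone.

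Rbp4, the retinol carrier, had the largest difference between the fragments and the whole embryo among the tested members. Its signal was 5237 and 4550 in Ad, 2833 and 3373 in Pp, and 1556 in the whole embryo. All 4 fragment arrays lay above the whole embryo, as did 22% of tested probe sets on MOE430A, and both Ad arrays lay above both Pp arrays, as did 32.3%. The fragments were 2.42-fold higher than the whole embryo (log2 difference 1.28 ± 0.12, SE, n = 4 against 1; limma adjusted p = 0.00385). Between the fragments, Ad averaged 4894 ± 486 and Pp 3103 ± 382 (SD, n = 2 each), a log2 difference of 0.55 ± 0.11 (SE) that did not pass (limma adjusted p = 0.208). The order of levels was Ad, Pp, whole embryo, and only the step from fragments to whole embryo was past the threshold.

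Over the 5 arrays the gene with the profile nearest to Rbp4 was Afp, the alpha-fetoprotein gene and a visceral endoderm marker, among 12427 tested probe sets with 1 symbol. Likeness was the root mean square distance between centred log2 profiles, each less its own mean, and was 0.106 for Afp, 0.139 for the glutathione transferase gene Gstt1 and 0.181 for the carbonyl reductase gene Cbr3. Afp had 6690 and 6410 in Ad, 4333 and 4888 in Pp, and 2596 in the whole embryo. Afp was picked by its likeness to Rbp4, so the same order of levels follows from that choice. Of the 10 visceral endoderm markers tested, 3 rose in the fragments against the whole embryo (Afp, Apoa1 and Foxa2) and 0 fell. The log2 difference was positive for 6 of the 10 and lowest for Sox17 (-0.62, limma adjusted p = 0.0762). Foxa2 gave 2304 and 1945 in Ad, 838 and 751 in Pp, and 782 in the whole embryo. Of 7 tested decidual markers, from a list chosen with earlier results of these data known, 6 fell. Over all tested probe sets 4.6% rose and 5.18% fell. What part the make-up of the samples had in the Rbp4 difference was not tested, and in bulk samples fewer cells of a type cannot be told apart from less RNA per cell.

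Ttr, which encodes the partner of Rbp4 in serum, was bright in every sample and passed neither comparison. Its brightest probe set gave 16170 and 15318 in Ad, 12264 and 15271 in Pp, and 13112 in the whole embryo. Both Ad arrays lay above both Pp arrays, Ad replicate 2 only just, as did 32.3% of tested probe sets on MOE430A. By a dimmer probe set Pp replicate 2 (8755) lay above Ad replicate 2 (8552). In the brightest, the Pp arrays straddled the whole embryo, with Pp replicate 1 below it and Pp replicate 2 above it and close to Ad replicate 2. The log2 difference was 0.13 for Ad minus Pp (95% interval -0.15 to 0.41; limma adjusted p = 0.682) and 0.24 for fragments minus the whole embryo (95% interval -0.08 to 0.56; limma adjusted p = 0.290). The other MOE430A probe sets of Ttr had Ad minus Pp differences of 0.22 and 0.22, and fragment minus whole-embryo differences of 0.27 and 0.39. The 0.39 (95% interval -0.06 to 0.84, limma adjusted p = 0.232) came from the probe set without an x or s suffix. The others on MOE430A have the suffix x, for probe sets that can bind other transcripts. Without Pp replicate 1 the brightest probe set had a log2 difference of -0.03 for Ad minus Pp. For fragments minus the whole embryo it had 0.32 without Pp replicate 1, which passed. It had 0.16 without Pp replicate 2, and 0.23 and 0.26 without Ad replicate 1 or 2, which did not pass. By profile the genes nearest to that probe set were Prkab1 (distance 0.0282), Tmem208 (0.0284) and Fmr1nb (0.0315).

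The Ttr probe set of MOE430B has the suffix s, which also marks probe sets that can bind other transcripts. It gave 9204 and 8219 in Ad, 6714 and 8184 in Pp, and 6610 in the whole embryo. Its log2 differences were 0.15 ± 0.15 (SE) for Ad minus Pp and 0.27 ± 0.17 (SE) for fragments minus the whole embryo, and neither passed (limma adjusted p = 0.761 and 0.485). The nearest profiles there belonged to 4930483O08Rik, C2cd4c and Aqp12. Whether Ttr and Rbp4 differ in their fragment to whole-embryo difference was not tested.

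Stra6, the cellular receptor for the carrier, was dim in the fragments. It gave 300 and 324 in Ad, 324 and 286 in Pp, and 660 in the whole embryo. All 4 fragment values lay below the filter signal, and the whole-embryo value was at least 2 times the highest of them, as it was for 1.75% of all probe sets on MOE430A. Stra6 was not tested with the filter; with no filter it was lower in the fragments than in the whole embryo (limma adjusted p = 0.0123).

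Rdh10, the retinol dehydrogenase of the pathway's first oxidation, ran opposite to Rbp4. On MOE430A it gave 1232 and 1077 in Ad, 1459 and 1695 in Pp, and 2207 in the whole embryo. All 4 fragments lay below the whole embryo, as did 36.8% of tested probe sets, and both Ad arrays lay below both Pp arrays, as did 12.2%. The fragments were lower than the whole embryo by a log2 difference of -0.54 ± 0.11 (SE, n = 4 against 1; limma adjusted p = 0.0362). This call ended without Ad replicate 1 or 2, at log2 differences of -0.58 and -0.50. It held without Pp replicate 1 or 2, at -0.49 and -0.59. Ad averaged 1154 ± 110 and Pp 1577 ± 167 (SD, n = 2 each), a log2 difference of -0.45 ± 0.10 (SE) that did not pass (limma adjusted p = 0.230).

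The Rdh10 probe set of MOE430B had the same order. It gave 315 and 287 in Ad, 386 and 415 in Pp, and 535 in the whole embryo. Both Ad arrays lay below both Pp arrays, as did 14.6% of tested probe sets there, and all fragments lay below the whole embryo, as did 22.7%. Log2 differences were -0.48 ± 0.14 (SE) for Ad minus Pp and -0.62 ± 0.16 (SE) for fragments minus the whole embryo, and neither passed (limma adjusted p = 0.418 and 0.121). The genes with the nearest profiles on MOE430A were Atp1b1 (distance 0.0594), Kdelr3 (0.0606) and Dgat2 (0.0616). Dgat2 encodes an acyltransferase of triglyceride synthesis and gave 761 and 763 in Ad, 939 and 1144 in Pp, and 1420 in the whole embryo.

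The MOE430B arrays may not be independent of the MOE430A arrays. Over the 100 probe sets that both types carry, the log2 difference between the 2 Ad arrays of MOE430A and that between the 2 Ad arrays of MOE430B had a Pearson r of 0.725, and for the Pp arrays r was 0.293. These are correlations across probe sets, given as a description, and the labels number the replicates differently on the 2 types without saying whether RNA was shared. The second array type was therefore not counted as further replicates.

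**Figure D2:**
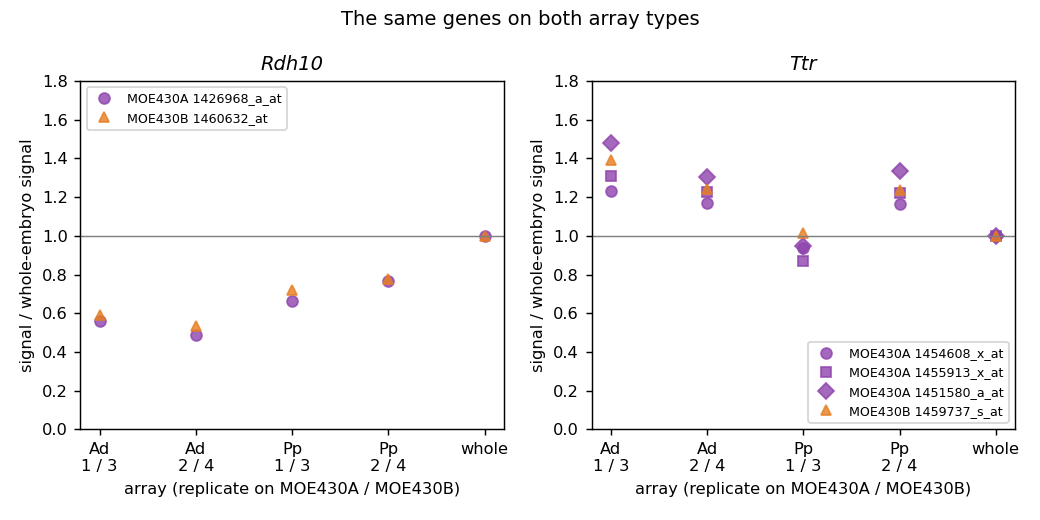
Signal of each Rdh10 and Ttr probe set divided by the signal of the whole-embryo array of the same type (vertical axes, ratio), for each Ad, Pp and whole-embryo array of MOE430A (purple) and MOE430B (orange). For Rdh10 all fragments lie below the whole embryo on both types with Ad lowest, and for Ttr the Pp array numbered 1 or 3 lies lowest among the fragments.

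Aldh1a1 and Aldh1a2, which make retinoic acid from retinal, both lay under the filter signal in every fragment. Aldh1a1 gave 70.2 and 73.2 in Ad, 73.1 and 75.7 in Pp, and 74.8 in the whole embryo. No sample stood out. Aldh1a2 gave 103 and 112 in Ad, 115 and 120 in Pp, and 1044 in the whole embryo. The whole embryo alone was above the filter signal. With no filter Aldh1a2 was lower in the fragments than in the whole embryo (limma adjusted p = 0.000859). Aldh1a2 and Stra6 together brought the member probe sets called lower without the filter to 3 of 11, against 4.15% of all probe sets. Of the other retinal dehydrogenase genes, Aldh1a3 gave 572 and 696 in Ad, 555 and 552 in Pp, and 555 in the whole embryo. Aldh8a1 gave 563 and 554 in Ad, 546 and 504 in Pp, and 566 in the whole embryo. By these brightest probe sets both were tested and passed neither comparison, and both are named after their values were seen. The dimmer Aldh1a3 probe sets lay under the filter signal in every sample (whole embryo 131 and 117). A dimmer Aldh8a1 probe set did not pass the filter.

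Most of the decidual markers were likewise higher in the whole embryo than in the fragments. Their list was chosen with earlier results of these data known. The decidual prolactin gene Prl8a2 gave 254 and 564 in Ad, 241 and 267 in Pp, and 6063 in the whole embryo. Of the 8 markers, 7 were tested and 6 fell in the fragments (Prl8a2, Tac2, Ctla2a, S100a6, Rgs2 and Igfbp4), against 5.18% of all tested probe sets. The exception by its brightest probe set was Des (log2 difference 0.12), whose dimmer probe set fell (-2.99; limma adjusted p = 0.000270). The 8th, Cryab, was dim in the fragments (103 to 168) and at 1723 in the whole embryo. The part of decidual RNA in the signals of Aldh1a2, Stra6 and Rdh10 was not tested.

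**Figure D3:**
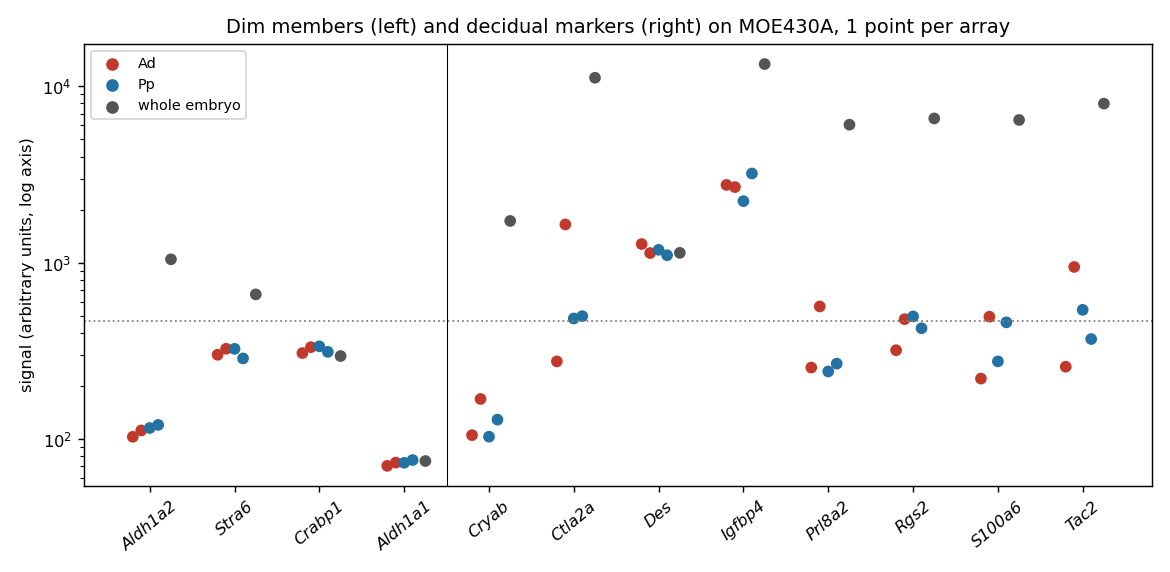
Signal (vertical axis, arbitrary units, log axis) on each MOE430A array for the 4 members under the filter (left) and the 8 decidual markers by their brightest probe sets (right), with the filter signal of 464 as a dotted line. Aldh1a2 and Stra6 were highest in the whole embryo, as were 7 of the 8 decidual markers, while Crabp1 and Aldh1a1 were not.

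Of the cellular binding proteins, Crabp2 passed the filter and Crabp1 did not. Crabp1 gave 306 and 331 in Ad, 335 and 311 in Pp, and 295 in the whole embryo, all under the filter signal. Crabp2, the carrier to the receptors, gave 643 and 878 in Ad, 889 and 675 in Pp, and 452 in the whole embryo. The Ad and Pp ranges overlapped. All 4 fragments lay above the whole embryo, as did 22% of tested probe sets on MOE430A. For Ad minus Pp the log2 difference was -0.10 (95% interval -0.47 to 0.26; limma adjusted p = 0.807), and it turned to 0.08 without Ad replicate 1 and to 0.04 without Pp replicate 1. Fragments minus the whole embryo gave 0.61 ± 0.17 (SE), which did not pass (limma adjusted p = 0.0761). With a Pp array left out, where far more of all probe sets passed, it passed too, at log2 differences of 0.54 and 0.69. With Ad replicate 1 or 2 left out it did not, at 0.70 and 0.53.

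Cyp26a1, the enzyme that clears retinoic acid, had the largest Ad minus Pp difference of the tested members. Its signal was 8574 and 8156 in Ad, 4057 and 5522 in Pp, and 4092 in the whole embryo. Both Ad arrays lay above both Pp arrays, as did 32.3% of tested probe sets on MOE430A. Pp replicate 1 lay just under the whole embryo. Ad averaged 8365 ± 295 and Pp 4789 ± 1037 (SD, n = 2 each), a log2 difference of 0.72 ± 0.14 (SE; 95% interval 0.37 to 1.07) that did not pass (limma adjusted p = 0.208). Fragments minus the whole embryo gave 0.67 ± 0.16 (SE), which did not pass either (limma adjusted p = 0.0565). With a Pp array left out, where far more of all probe sets passed, it passed too, at log2 differences of 0.78 and 0.57. With Ad replicate 1 or 2 left out it did not, at 0.66 and 0.69. On the centred log2 scale Ad lay 1.03 above the whole embryo and Pp 0.31 above it, so most of that difference sat in the Ad arrays. By their brightest probe sets all 6 anterior visceral endoderm markers had a positive Ad minus Pp difference. Of these 3 passed, where 0.162% of all tested probe sets passed as higher in Ad. That list was chosen with earlier results of these data known, and Ad was cut to contain this endoderm. Such calls could therefore be foreseen. By brightest probe sets the largest difference was that of Lefty1 (2.20), a Nodal antagonist of the anterior visceral endoderm. It gave 6489 and 4658 in Ad, 912 and 987 in Pp, and 1398 in the whole embryo. The dimmer probe set of Cer1 had a larger difference (2.81, limma adjusted p = 0.000191). It gave 3681 and 3670 in Ad, 283 and 288 in Pp, and 742 in the whole embryo. The part of these markers in the Cyp26a1 difference was not tested.

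Between Ad and Pp, 0 of the 7 tested member probe sets on MOE430A passed in limma, and 3 had an unadjusted p under 0.05: Rbp4 (0.00252), Cyp26a1 (0.00259) and Rdh10 (0.00370). An unadjusted p under 0.05 was reached by 11.7% of all tested probe sets of that type. Over all tested probe sets 0.162% passed after adjustment as higher and 0.00737% as lower in Ad. On MOE430B 0 of 2 passed in limma, against 0.104% higher and 0.0074% lower over all probe sets. Rdh10 was the 1 with an unadjusted p under 0.05 there, against 10.4% of all. The MOE430A count moved when a Pp array was left out and not when an Ad array was. Without Ad replicate 1 and without Ad replicate 2 it stayed at 0, where 0.00737% and 0.0221% of all probe sets passed. Without Pp replicate 1, Rbp4 (limma adjusted p = 0.0189), Cyp26a1 (0.00379) and Rdh10 (0.00312) passed, where 5.94% of all probe sets did. Without Pp replicate 2, Rbp4 (limma adjusted p = 0.00148) and Cyp26a1 (5.24e-05) passed along with the 2 dimmer probe sets of Ttr, where 3.72% of all did. In those fits the spread came from the Ad pair alone, and the lone Pp array was assumed to vary like it. The Pp arrays also differed in extraembryonic ectoderm markers, and the part of this was not tested.

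For the fragments against the whole embryo, 2 of the 7 tested member probe sets on MOE430A passed, Rbp4 higher and Rdh10 lower, against 4.6% of all tested probe sets higher and 5.18% lower. At an unadjusted p under 0.05 were 4 of the 7, against 27.3% of all. On MOE430B 0 of 2 passed in limma, against 0.407% higher and 1.81% lower. Rdh10 was the 1 with an unadjusted p under 0.05 there, against 16.4% of all. The MOE430A count was 7 without Pp replicate 1 and 5 without Pp replicate 2, where 22.8% and 25.7% of all probe sets passed. It was 1 without Ad replicate 1 and 1 without Ad replicate 2 (Rbp4 both times), where 2.22% and 2.02% passed. For the whole embryo, with its 1 array, the spread was taken from the fragments. The comparisons with Pp and with the whole embryo share the Ad and Pp arrays.

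**Figure D4:**
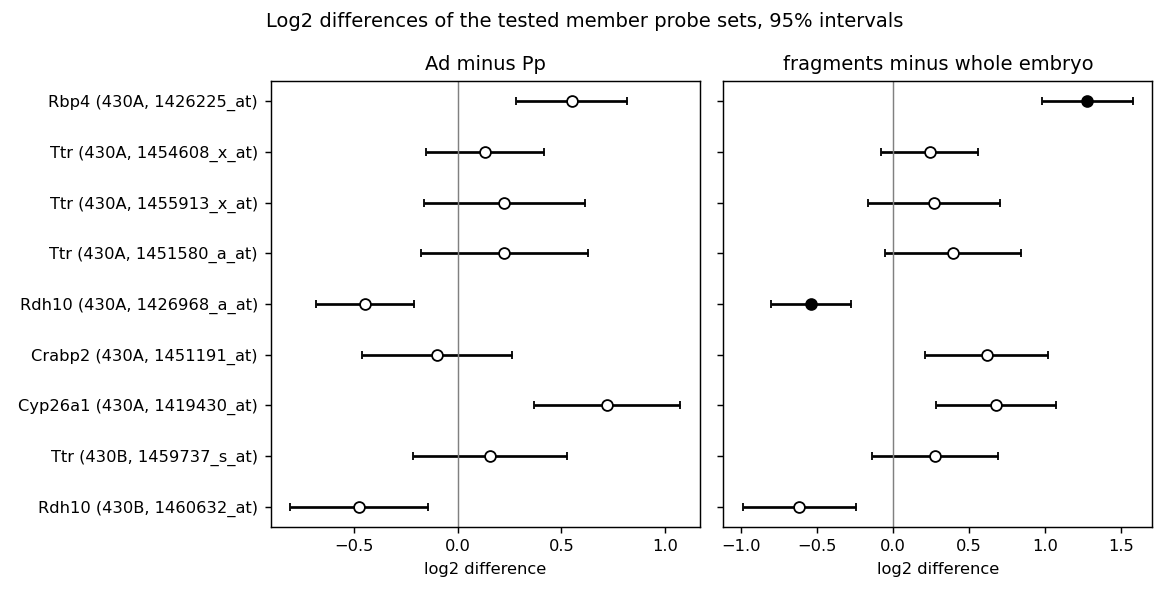
Log2 differences (horizontal axes) of the 9 tested member probe sets with 95% intervals from limma, for Ad minus Pp (left) and fragments minus the whole embryo (right); filled points are past an adjusted p of 0.05. Rbp4 (1.28) and Rdh10 on MOE430A (-0.54) are filled at right and no point is filled at left.

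As with the members, no other tested gene of the pathway passed between Ad and Pp. Of 44 listed genes in 7 roles, 37 were on MOE430A and 22 were tested, by their brightest probe sets. In Ad minus Pp 0 rose and 0 fell in limma, 2 had an unadjusted p under 0.05 (against 11.7% of all tested probe sets), and the median log2 difference was -0.04, against -0.03 over all tested probe sets. At the ends were Lrp2, the endocytic receptor megalin (-0.27, and -0.42 by a dimmer probe set, limma adjusted p = 0.196), and the receptor gene Rxrb (0.14). On MOE430B 7 were tested, 0 passed in limma, 1 had an unadjusted p under 0.05 (against 10.4% of all), and the median was -0.14 against -0.01 over all probe sets. Its ends were Rxra (-0.46) and Rarres1 (0.02).

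Against the whole embryo, 1 of the 22 rose and 2 fell, where 4.6% of all tested probe sets rose and 5.18% fell. An unadjusted p under 0.05 was reached by 6 of them, against 27.3% of all, and the median was 0.07 against 0.05 over all tested probe sets. Fabp5, a fatty acid carrier that can also carry retinoic acid to a nuclear receptor, rose. It gave 3139 and 3589 in Ad, 3230 and 3207 in Pp, and 2045 in the whole embryo (log2 difference 0.70 ± 0.10, SE; limma adjusted p = 0.0135). Its Ad minus Pp difference was -0.01, and a dimmer probe set was at 0.50 against the whole embryo and did not pass (limma adjusted p = 0.104). The transglutaminase gene Tgm2, a retinoic acid response gene in cultured cells, fell (-1.02 ± 0.16, SE; limma adjusted p = 0.0186), with 1084 and 740 in Ad, 779 and 860 in Pp, and 2118 in the whole embryo. Of its other tested probe sets 1 fell (-0.97) and the others were at -0.24 and 0.15, so they disagreed. Rdh13, a retinol dehydrogenase family gene, fell by 0.35 on the log2 scale (limma adjusted p = 0.0427).

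By their brightest probe sets 0 of 4 tested receptor genes passed on MOE430A, with Rarg at 0.07, Rarb at 0.16, Rxra at 0.14 and Rxrb at 0.22 against the whole embryo. A dimmer Rxra probe set fell (-0.62 ± 0.07, SE; limma adjusted p = 0.00831), with 775 and 734 in Ad, 683 and 669 in Pp, and 1311 in the whole embryo. The probe sets of Rxra therefore disagreed. On MOE430B the homeobox gene Meis2, which responds to retinoic acid, fell (-1.21 ± 0.18, SE, limma adjusted p = 0.0233). It was the single call among 7 tested genes, where 0.407% of all tested probe sets rose and 1.81% fell. A dimmer Meis2 probe set of MOE430B fell as well (-1.31, limma adjusted p = 0.0162), while the Meis2 probe set of MOE430A was at 0.05. The esterifying enzyme gene Lrat was singled out after its values were seen: on MOE430B it gave 1 and 3.24 in Ad, 1 and 5.87 in Pp, and 97.4 in the whole embryo. On MOE430A it gave 43.2 and 38.3 in Ad, 33.1 and 40.4 in Pp, and 59.96 in the whole embryo, and neither probe set was tested. The other hydroxylase with a probe set, Cyp26b1, gave at most 4.56 on any MOE430B array.

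**Figure D5:**
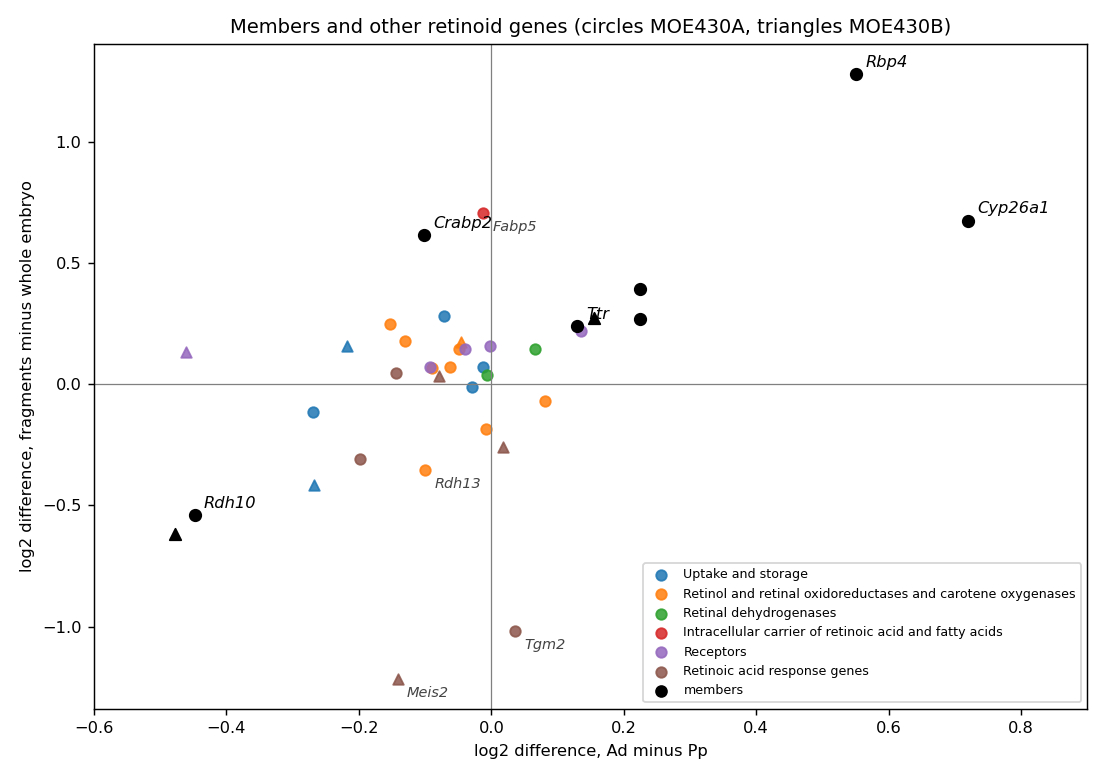
Log2 difference of Ad minus Pp (horizontal axis) and of fragments minus the whole embryo (vertical axis) for the tested members (black) and the other tested retinoid genes by role (colours), circles for MOE430A and triangles for MOE430B; both axes use the same fragment arrays. Rbp4 and Cyp26a1 lie at the upper right, Rdh10 at the lower left, and Tgm2 and Meis2 lowest near the centre line.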

How the data were processed

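Each deposited value is the linear intensity of a probe set. The RNA was linearly amplified, per the labels' protocols, and the authors used MAS5, per the submitters' processing notes, with no version or scaling target stated there. Array medians were 590.5 to 644.8 on MOE430A and 56.7 to 61.0 on MOE430B. No detection calls were used. Precision is limited by the number of arrays.

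The 2 array types were fitted separately (limma 3.58.1 in R 4.3.3). Control probe sets (64 per type) stayed out of every step. A pseudocount at the 20th percentile (248 on MOE430A, 10.5 on MOE430B) was added before log2. Probe sets above the 40th percentile of mean log2 value were kept (13575 and 13506), and each array was centred on its median. Ad, Pp and whole embryo entered 1 model (lmFit, eBayes; 2 residual degrees of freedom), tested two-sided. The procedure was checked on simulated data. Fold changes are on the log2(value + pseudocount) scale.

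Names came from the platform annotation. Suffixes x and s mark probe sets that can bind other transcripts. Rbpr2 was matched to Stra6l through RefSeq synonyms. All members are named. Of other listed genes those past the threshold and at each end are named, plus the 3 nearest profiles of Rbp4, Ttr and any member whose brightest probe set passed. The members and lists were chosen with earlier results of these data known. Alternatives changed the pseudocount, filter, scaling, replicate block and arrays used.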

Additional observations from a re-analysis of the deposited data

How the results depend on the processing

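Rbp4 stayed higher in the fragments than in the whole embryo and past the threshold in all 12 alternatives, with log2 differences of 1.18 to 1.42 and limma adjusted p of 2.01e-07 to 0.0286. No direction of a tested member, by its brightest probe set, changed with the pseudocount, filter, centring or quantile setting. With arrays left out, Ad minus Pp ranged from -0.0324 (without Pp replicate 1) to 0.292 for Ttr. For Crabp2 it ranged from -0.278 to 0.076 (without Ad replicate 1), and was 0.0425 without Pp replicate 1. Member calls on MOE430A ranged from 0 to 4 for Ad minus Pp and from 1 to 7 for fragments minus the whole embryo with 1 array left out, from 0 and 2 with all arrays. With no filter the second count was 4, adding Stra6 and Aldh1a2. On MOE430B both counts were 0 in all 11 alternatives.

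Same-numbered Ad and Pp arrays deviated with a correlation of -0.242 on MOE430A and -0.0392 on MOE430B, and the labels do not say that a number pairs arrays. With the replicate block 0 members passed in Ad minus Pp on MOE430A and 2 in fragments minus the whole embryo, Rbp4 and Cyp26a1 (limma adjusted p = 0.0484), with Rdh10 at 0.0563. With crossed numbers, added after seeing the data, the counts were 0 and 4, Cyp26a1 (0.0263) and Crabp2 (0.0102) among them. Over all probe sets, Ad minus Pp calls on MOE430A were 23, against 46 with no centring, 47 with crossed numbers and 1 to 807 with 1 array left out. On MOE430B they were 15, against 30 with the larger pseudocount, 2 with no filter, 26 with the stricter filter, 29 with the block and 0 to 131 with 1 array left out. Fragment against whole-embryo calls were 1327, against 865 with the block and 274 to 3494 with 1 array left out on MOE430A, and 299, against 196 with no filter and 101 to 1180 with 1 array left out on MOE430B. The cause of these changes was not tested.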
